A study of Mus musculus with 30 samples.

Results

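The 6 genes described here are *Meis1*, *Meis2*, *Meis3*, *Pbx2*, *Pbx3* and *Shox2*, chosen by name out of 50833 genes in the count table. All 6 were in the table and all 6 passed the filter on low counts at every time point. Forelimb buds came from wild-type Swiss Albino mouse embryos whose mothers were injected at E10.5 with Wnt-C59 (C59) or, as controls, with DMSO in buffer. By the study's methods C59 was dissolved in DMSO and then diluted in buffer that also held methylcellulose and the detergent Tween. The methods name neither additive for the control injections, and the part of the vehicle was not tested. C59 is a small molecule inhibitor of porcupine, the enzyme that adds the lipid WNT proteins need for secretion. Limb buds were taken at 5 times after the injection (1, 6, 12, 18 and 24 h), with 3 libraries in each of the 10 groups and 30 in all, and RNA was measured by polyA RNA-sequencing. Each library was made from a pair of forelimb buds of one embryo, and no embryo carried a mutant allele. C59 was given to the mother, so exposure was not limited to one cell type, and the study's methods state that the replicates of a group held embryos of 3 or more litters.

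MEIS and PBX proteins are homeodomain factors of the TALE class, named for an insertion of 3 amino acids between the first helices of the homeodomain, and they bind DNA together and with HOX proteins. In the early limb bud *Meis1* and *Meis2* are known as markers of the proximal part, associated there with retinoic acid and lost distally under FGF signals from the apical ridge. *Shox2* encodes a homeodomain factor needed for growth of the proximal skeleton. The libraries are of whole buds and hold no position, so they show how much RNA of each gene the bud contained and not where it was. In such bulk samples fewer cells that express a gene cannot be told apart from less RNA per cell.

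The members are similar in sequence within each family, and their values are of use only where reads can be told apart. The stretches below are 60 coding bases of the end of the homeodomain, which holds its recognition helix, shown for the 3 *Meis* genes with the 12 positions that differ among them in capitals (GENCODE M21 transcripts, GRCm38).
Meis1: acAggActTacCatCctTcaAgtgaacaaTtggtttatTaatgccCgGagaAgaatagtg
Meis2: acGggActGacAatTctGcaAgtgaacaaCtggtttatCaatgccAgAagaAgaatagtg
Meis3: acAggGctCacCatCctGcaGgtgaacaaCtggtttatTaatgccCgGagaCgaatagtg
*Meis1* and *Meis2* had the same base at 51 of these 60 positions, *Meis1* and *Meis3* at 54, and *Meis2* and *Meis3* at 50. The corresponding stretch of *Pbx2* and *Pbx3* follows, with their 12 differing positions in capitals.
Pbx2: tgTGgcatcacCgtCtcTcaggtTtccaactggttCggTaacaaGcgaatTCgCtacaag
Pbx3: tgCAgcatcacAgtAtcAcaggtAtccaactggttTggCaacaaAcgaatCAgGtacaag
*Pbx2* and *Pbx3* were identical at 48 of 60 positions. Each of the 5 stretches runs across an intron in the genome. The first and last bases lie at positions 18885624 and 18905720 of chromosome 11 for *Meis1*, 115868776 and 115921703 of chromosome 2 for *Meis2*, 16183836 and 16184065 of chromosome 7 for *Meis3*, 34594697 and 34594839 of chromosome 17 for *Pbx2*, and 34178304 and 34204800 of chromosome 2 for *Pbx3*. Over the whole coding sequences the longest run shared without a mismatch was 28 bases, between *Meis2* and *Meis3*, and no stretch of 31 bases was shared within any pair. Reads were 150 bases long, which is more than any shared run.

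The genes (GRCm38, GENCODE M21) span positions 18879817 to 19018985 on the minus strand of chromosome 11 for *Meis1* (ENSMUSG00000020160), 115863064 to 116065839 on the minus strand of chromosome 2 for *Meis2* (ENSMUSG00000027210) and 16175090 to 16186504 on the plus strand of chromosome 7 for *Meis3* (ENSMUSG00000041420). *Pbx2* (ENSMUSG00000034673) spans 34591266 to 34597400 on the plus strand of chromosome 17, *Pbx3* (ENSMUSG00000038718) 34171457 to 34373142 on the minus strand of chromosome 2, and *Shox2* (ENSMUSG00000027833) 66971727 to 66981771 on the minus strand of chromosome 3. Exons of *Shox2* share 153 bases with exons of *Rsrc1* on the opposite strand, and exons of *Pbx2* share 227 bases with *Gpsm3* on the same strand. Summed over the 30 libraries, *Rsrc1* held 54522 counts against 192507 for *Shox2*, and *Gpsm3* 1670 against 204775 for *Pbx2*. *Meis1* shares 1029 exonic bases with *Gm37818* on the same strand, which held 255 counts against 51270 for *Meis1*. It also shares 896 exonic bases with the antisense gene *Gm16140*, which held 86 counts. The strand used in counting was not stated, so reads in these overlaps cannot be assigned to one gene.

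Because C59 acts on WNT secretion, the letters before the start of *Shox2*, the member that was called earliest, are shown with the core of the TCF/LEF motif (CTTTGA, or TCAAAG on the other strand) in capitals. The stretch covers the 250 bases before the start of transcription, at chr3:66981772-66982021, minus strand (RefSeq, GRCm38.p6).
Shox2: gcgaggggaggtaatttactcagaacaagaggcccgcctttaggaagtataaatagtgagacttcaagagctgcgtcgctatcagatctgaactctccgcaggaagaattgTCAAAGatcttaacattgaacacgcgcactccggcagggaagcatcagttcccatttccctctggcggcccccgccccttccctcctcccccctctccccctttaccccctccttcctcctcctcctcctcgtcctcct
The match, read as TCAAAG, lies 139 to 134 bases before the start. One further member, *Meis2*, held the motif, read as CTTTGA, 109 to 104 bases before its start. For *Meis2* the 80 bases outside annotated exons are shown, at chr2:116064722-116064801, minus strand. They lie within the span of the gene, since longer transcripts start further upstream.
Meis2: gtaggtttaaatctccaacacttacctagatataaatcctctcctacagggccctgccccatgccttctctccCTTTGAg
No match was found in the windows of *Meis1*, *Meis3* and *Pbx2*. Among all 32851 promoter windows of the same length 13.8% held this motif. The MEIS motif core (TGACAG, or CTGTCA) was in 15.9% of all windows and in none of the 5. *Pbx3* had no entry. These matches are letters in a window and do not show binding.

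Across the whole series the libraries held from 18188636 to 38974885 counts, with a median of 21597120. *Axin2*, a direct target of canonical WNT signalling, was at -0.19 log2 units in C59 at 1 h (edgeR, adjusted p = 0.0282), fell at 6 h from 110 ± 6.82 to 28.2 ± 1.51 CPM (counts scaled to library size, mean ± SD, n = 3; log2 fold change -1.97, edgeR, adjusted p = 7.55e-11), remained low at 12 h (-1.46) and no longer differed by the test at 18 h (-0.16, adjusted p = 0.333) and 24 h (-0.08, adjusted p = 0.507). C59 18 h replicate 3 stood apart from all other libraries, with a distance of 0.378 log2 units from its group against at most 0.275 for any other, and the variation between replicates was 12.5% at 18 h and from 5.41% to 7.52% at the other times. The sexes were not balanced. In sum, transcripts of 4 genes on the Y chromosome reached 0.047 to 9.03 FPKM in DMSO and 21.2 to 38.2 in C59 at 1 h, and 0 in all DMSO libraries and 19.8 to 33.2 in C59 at 6 h. The part of sex in the results at these times was not tested, and at 6 h it cannot be told apart from that of the treatment.

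The levels of the members covered a wide range. Compared per transcript length, as FPKM (fragments scaled to transcript length and library size) in DMSO at 1 h, *Pbx2* was highest at 93.9 ± 1.18 (SD, n = 3), followed by *Shox2* at 79.0 ± 1.8, *Meis2* at 50.3 ± 0.483, *Meis1* at 27.1 ± 0.195, *Pbx3* at 20.5 ± 1.12 and *Meis3* at 5.57 ± 0.737. No neighbours in this order overlapped. *Pbx2* stood at percentile 96.4 of the 15915 protein-coding genes with an FPKM over 0, *Shox2* at 95.5, *Meis2* at 92, *Meis1* at 83.9, *Pbx3* at 78.4 and *Meis3* at 51.9. *Meis3* was thus near the middle of the distribution and the others above it. At 12 h in DMSO *Shox2* (85.5 to 97.5 FPKM) and *Pbx2* (84.2 to 85.9 FPKM) were close, with *Shox2* at 90.4 ± 6.27 and *Pbx2* at 85.1 ± 0.88, and in C59 at 24 h *Pbx3* (18.3 to 20.2 FPKM) and *Meis1* (18.3 to 18.4 FPKM) overlapped.

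All other levels are given in CPM, counts scaled to the library size after TMM normalization, which suit comparisons of one gene between libraries. The first comparison asks how the members changed in the control embryos as the limb bud grew over this day. *Meis1* fell in DMSO from 97.8, 99.5 and 99.1 CPM at 1 h to 62.2, 69.1 and 62.1 CPM at 24 h. The replicates at 1 h were nearly equal and no library of 24 h came near them. Its log2 fold change was -0.61 ± 0.05 (SE; edgeR, adjusted p = 1.69e-08). Most of this fall was over by 18 h, at which the values were 63.3, 65.3 and 61.8 CPM.

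*Meis2*, the more abundant *Meis* gene, fell in DMSO from 210, 216 and 211 CPM at 1 h to 147, 147 and 144 CPM at 24 h, by -0.54 ± 0.07 log2 units (SE; edgeR, adjusted p = 2.42e-06). Its group means were 212, 189, 177, 164 and 146 CPM at 1, 6, 12, 18 and 24 h, each lower than the one before. *Meis3*, the low member, fell from 11.4, 12.2 and 11.8 CPM to 6.43, 7.5 and 6.74 CPM (-0.77 ± 0.16, edgeR, adjusted p = 0.000498). *Meis3* had reached a mean of 6.89 ± 2.17 CPM by 12 h and 6.89 ± 0.548 CPM at 24 h. Thus all 3 *Meis* genes fell, and for each of them the libraries at 1 h and 24 h did not overlap.

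The *Pbx* genes encode partners with which MEIS proteins bind DNA. *Pbx2* fell in DMSO from 344, 352 and 335 CPM to 272, 283 and 289 CPM (-0.29 ± 0.04, edgeR, adjusted p = 7.92e-06). *Pbx3* fell from 73.5, 71.0 and 70.2 CPM to 48.6, 49.9 and 53.5 CPM (-0.49 ± 0.05, edgeR, adjusted p = 3.69e-07). *Shox2* was the exception. It measured 268, 284 and 272 CPM at 1 h, 328, 317 and 329 CPM at 6 h, and 282, 314 and 292 CPM at 24 h. Its groups at 1 h and 24 h overlapped and the difference of 0.11 ± 0.05 did not pass the test (edgeR, adjusted p = 0.057). It did pass on log2(FPKM + 1) (0.185, limma, adjusted p = 0.00586) and log2(FPKM + 0.1) (0.187, limma, adjusted p = 0.00607), where the groups, at 77.8 to 81 and 86.6 to 94.2 FPKM, did not overlap. It also passed with upper-quartile factors (0.14, adjusted p = 0.0292), with a minimum mean of 1 CPM (0.12, adjusted p = 0.0363) and without DMSO 1 h replicate 2 (adjusted p = 0.047), and again when DMSO 24 h replicate 1 was left out (adjusted p = 0.0312), in each case as higher at 24 h.

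Together, 5 of the 6 members were called lower in DMSO at 24 h than at 1 h, where 56.5% of all 13716 genes tested were called and 27.6% were called lower. Groups did not overlap for 64.5% of all genes. None of the members passed a log2 fold change of 1, which 12.1% of all genes did.

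**Figure D1:**
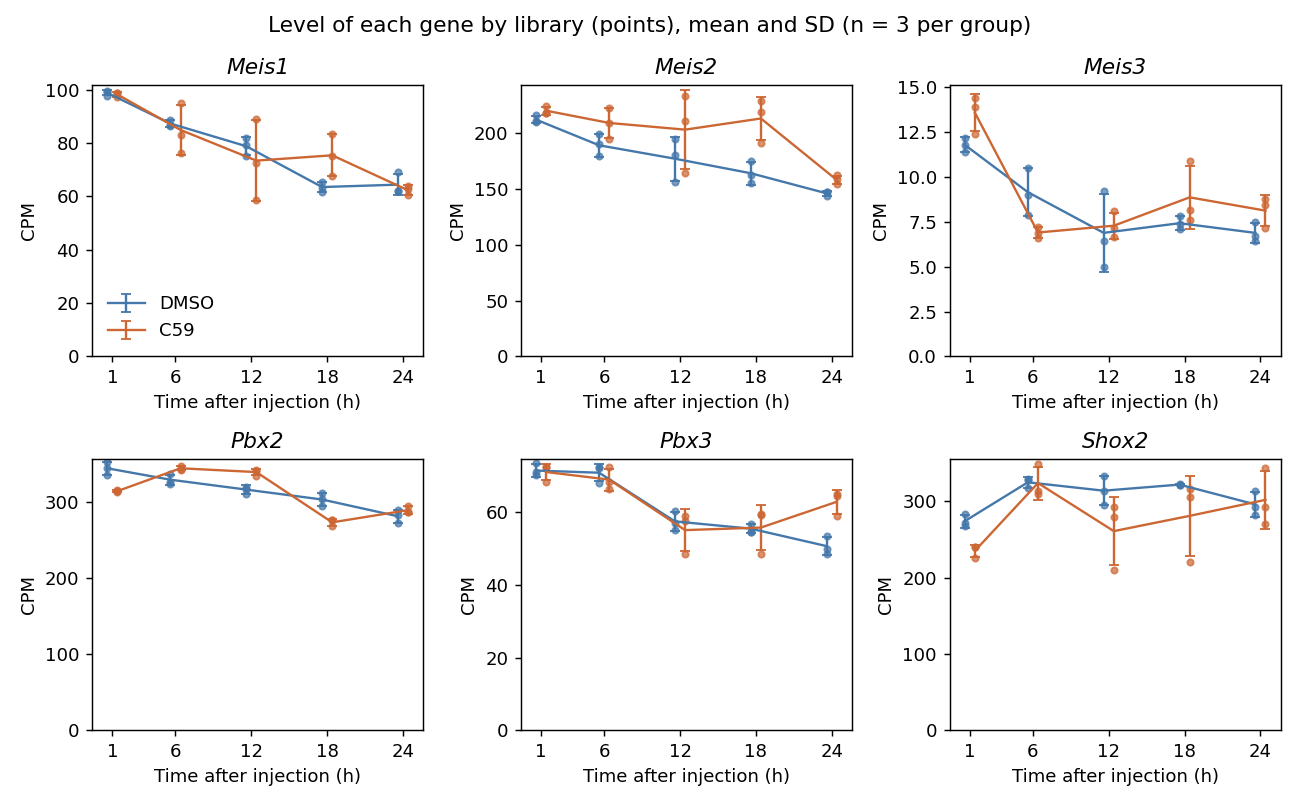
Level of each of the 6 genes in CPM (y axis from 0) against hours after injection, with DMSO in blue and C59 in orange. Points are libraries, lines join group means and bars are SD (n = 3). The 3 *Meis* genes and both *Pbx* genes in DMSO are lower at 24 h than at 1 h, *Shox2* is not, and the C59 bars of *Meis1*, *Meis2* and *Shox2* are wide at 12 h.

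In embryos that received C59 the same comparison of 24 h with 1 h gave a similar list. *Meis1* fell from 98.6, 98.8 and 97.3 CPM to 62.6, 60.4 and 64.0 CPM (-0.67 ± 0.12, edgeR, adjusted p = 0.000255), *Meis2* from 218, 224 and 218 CPM to 154, 162 and 159 CPM (-0.49 ± 0.10, edgeR, adjusted p = 0.000826) and *Meis3* from 14.4, 12.4 and 13.9 CPM to 8.79, 7.18 and 8.43 CPM (-0.76 ± 0.13, edgeR, adjusted p = 0.000222). Each of these 3 falls left no overlap between the groups. *Pbx2* fell from 314, 315 and 313 CPM to 295, 286 and 286 CPM (-0.13 ± 0.05, edgeR, adjusted p = 0.0208). That call was lost with upper-quartile factors (adjusted p = 0.255), with all genes of the table (adjusted p = 0.135) and without C59 24 h replicate 2 (0.0731) or replicate 3 (0.0703), and on log2(FPKM + 1) the direction turned (0.02, limma).

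*Pbx3* did not pass in C59. It measured 72.5, 72.4 and 68.4 CPM at 1 h and 59, 65 and 64.5 CPM at 24 h (-0.19 ± 0.09, edgeR, adjusted p = 0.0872), although the groups did not overlap. It passed as lower with no filter on low counts (-0.22, adjusted p = 0.0497) and with all 30 libraries sharing the spread (-0.18, adjusted p = 0.0391). *Shox2* rose from 226, 240 and 240 CPM to 270, 344 and 293 CPM (0.35 ± 0.14, edgeR, adjusted p = 0.0426). The *Shox2* call was lost when any of 5 libraries was left out (C59 1 h replicates 1, 2 and 3, and C59 24 h replicates 2 and 3), with adjusted p from 0.0598 to 0.167. In C59, 4 members were therefore called lower and 1 higher, against a background of 49.6% of all genes called, 24.4% lower and 25.2% higher. Groups did not overlap for 61.7% of all genes, and 13.5% passed a log2 fold change of 1, which no member did.

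**Figure D2:**
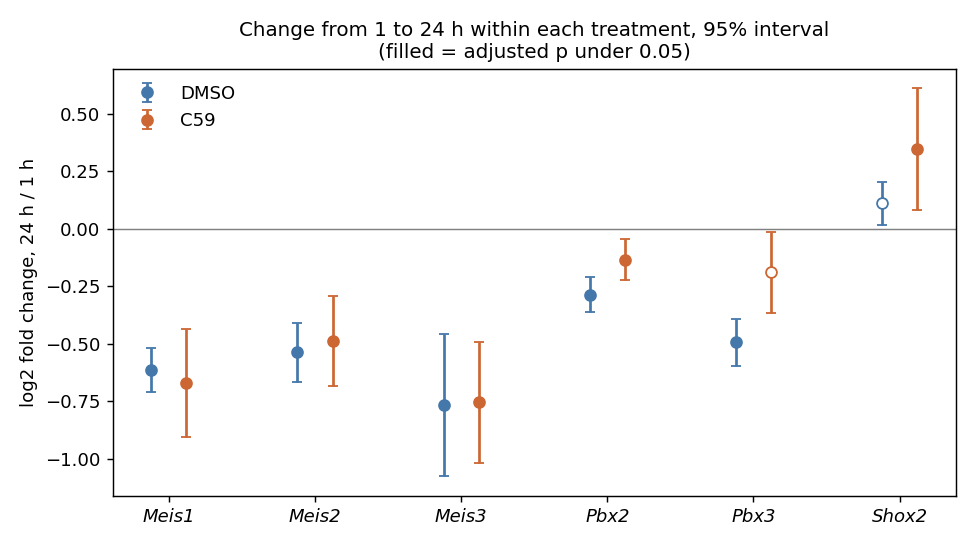
Log2 fold change from 1 h to 24 h (y axis) of each gene within DMSO (blue) and within C59 (orange), with the 95% interval, taken from the SE by the normal distribution. Filled points passed an adjusted p of 0.05. *Meis1*, *Meis2* and *Meis3* have nearly the same change in both treatments, whereas *Pbx3* is at -0.49 in DMSO and -0.19 in C59.

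The difference between both courses was tested directly, as the effect of C59 at 24 h against that at 1 h, over 12 libraries. *Pbx3* was the member that passed, with a difference of 0.33 ± 0.08 log2 units (edgeR, adjusted p = 0.0282), beside a background of 4.18% of genes called, 1.85% higher and 0.793% beyond a log2 change of 1. *Shox2* (0.27 ± 0.10, edgeR, adjusted p = 0.125) and *Pbx2* (0.18 ± 0.06, adjusted p = 0.111) leaned the same way without passing, although *Shox2* passed without C59 24 h replicate 1 (0.34, adjusted p = 0.0257) and *Pbx2* by DESeq2 (adjusted p = 0.0412). For *Meis1* the difference was -0.03, with an interval from -0.17 to 0.12, and for *Meis2* it was 0.08, from -0.04 to 0.20. These intervals bound how far the C59 and DMSO courses of *Meis1* and *Meis2* could differ between the ends of the day. The *Pbx3* difference was 0.30 to 0.37 whichever library was left out. Its call was lost more easily, since leaving out any of 8 libraries (DMSO 1 h replicate 1 or 2, each of the C59 1 h replicates, DMSO 24 h replicate 1 or 2, C59 24 h replicate 2) raised the adjusted p to between 0.0547 and 0.0859, and it was lost with all 30 libraries sharing the spread (adjusted p = 0.106).

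The main comparison of the study, C59 against DMSO at each time point, asks what loss of WNT secretion did to these genes hour by hour. At every time point exactly 1 of the 6 members was called, and it was a different gene each time. In order of time the share of all genes called was 2.75%, 19.6%, 47.5%, 7.08% and 6.44%, so that 1 of 6 was below the background at 6 h and 12 h. No member reached a log2 fold change of 1 at any time, which 0.283%, 1.17%, 4.95%, 1.29% and 0.819% of all genes did while being called. Over the 5 time points the effects of the 6 genes lay between -0.42 and 0.40 on the log2 scale.

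At 1 h the called member was *Shox2*. Its values were 268, 284 and 272 CPM in DMSO and 226, 240 and 240 CPM in C59, which did not overlap, and its log2 fold change was -0.22 ± 0.04 (SE; edgeR, adjusted p = 0.00886). This is a level 0.858 times that of DMSO. Of all genes, 1.61% were called lower at 1 h. Without C59 1 h replicate 1 the adjusted p was 0.071, and with all 30 libraries sharing the spread it was 0.433. *Pbx2* was also without overlap, at 344, 352 and 335 CPM in DMSO and 314, 315 and 313 CPM in C59, but its difference of -0.13 ± 0.04 did not pass (edgeR, adjusted p = 0.0839), although it did without DMSO 1 h replicate 3 (adjusted p = 0.032). *Meis2* (210, 216 and 211 CPM in DMSO, 218, 224 and 218 CPM in C59) and *Meis3* (11.4, 12.2 and 11.8 CPM, and 14.4, 12.4 and 13.9 CPM) were without overlap in the other direction, by 0.05 ± 0.04 (edgeR, adjusted p = 0.52) and 0.21 ± 0.10 (adjusted p = 0.311). Groups did not overlap for 22% of all genes at this time, and for 4 of the 6 members. *Meis1* and *Pbx3* overlapped, with differences of -0.01 each. The C59 libraries at 1 h also held more RNA of a list of 5 lateral plate and coelomic lining genes, summing to 26.2 to 47.4 CPM against 12.7 to 22.1 CPM in DMSO, with 2 of the 4 tested called higher (*Gata4* and *Gata6*). Neural genes were also apart, at 14.9 to 15.6 CPM in C59 and 12.3 to 14.6 CPM in DMSO, with 0 of 2 tested called. Among 5 limb mesenchyme genes 1 was called lower and 0 higher. The part of these tissues in the *Shox2* result was not tested.

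By 6 h *Shox2* overlapped between the groups, with 328, 317 and 329 CPM in DMSO and 349, 313 and 310 CPM in C59 (-0.01, with an interval from -0.11 to 0.09). At this time *Axin2* was at its lowest. *Meis3* was the called member, at 9.01 and 7.91 CPM in DMSO replicates 2 and 3, somewhat more in replicate 1 (9.16 ± 1.32 over the group), and 6.91, 7.21 and 6.62 CPM in C59, which did not overlap (-0.42 ± 0.13, edgeR, adjusted p = 0.0403). Of all genes, 11.4% were called lower and 36.8% had no overlap between the groups. The *Meis3* call was among the weakest of the series. It was lost under DESeq2 (adjusted p = 0.0561), with all 30 libraries sharing the spread (0.0852), on log2(FPKM + 1) (limma, 0.0746), and without DMSO 6 h replicate 1 (0.206) or any of C59 6 h replicates 1 (0.107), 2 (0.0736) and 3 (0.122). With upper-quartile factors the adjusted p was 0.05. Some marker sums also differed at 6 h without overlap, with limb mesenchyme at 1140 to 1240 CPM in C59 and 1760 to 1790 in DMSO. Cartilage (905 to 1080 and 735 to 800) and muscle progenitors (103 to 107 and 80.1 to 84.9) did too. The muscle list was split, with 1 of its 5 genes called higher and 1 lower. Surface ectoderm (173 to 188 and 193 to 217) and hindlimb identity genes (17.1 to 22.1 and 14.8 to 16.5) were likewise apart. Among the 6 ectoderm genes 2 were called lower, while 2 had a log2 fold change above 0. Only 1 of the 2 hindlimb genes was called, as higher. The shares of all genes called were 8.2% higher and 11.4% lower. The part of these cell types in the *Meis3* result was not tested.

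*Meis2* was higher in C59 at 6 h by 0.14 ± 0.06 (edgeR, adjusted p = 0.105), with 199, 190 and 179 CPM in DMSO and 195, 209 and 222 CPM in C59, and the groups overlapped. Without DMSO 6 h replicate 1 it passed (adjusted p = 0.0456). *Meis1* did not move with it. It measured 88.8, 86.7 and 86.5 CPM in DMSO and 76.4, 83.1 and 95.1 CPM in C59 (-0.05 ± 0.07, edgeR, adjusted p = 0.679). Both genes were highest in C59 replicate 3 and lowest in C59 replicate 1.

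At 12 h *Pbx2* was the called member. It was at 317, 310 and 320 CPM in DMSO and 342, 334 and 340 CPM in C59, a difference of 0.10 ± 0.04 (edgeR, adjusted p = 0.0447) with 22% of all genes called higher. The level was 1.07 times that of control, and the replicates lay close together, at 316 ± 5.42 and 339 ± 3.92 CPM. The call was lost under DESeq2 (adjusted p = 0.064), with no filter on low counts (0.058), with all genes of the table (0.0502) and without any of DMSO 12 h replicates 1 (0.124), 2 (0.141) and 3 (0.0569) or C59 12 h replicates 1 (0.0623) and 3 (0.0589).

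*Shox2* had the largest difference among the members at 12 h, from 313, 295 and 333 CPM in DMSO to 292, 279 and 210 CPM in C59, without overlap. The difference of -0.27 ± 0.10 just missed the threshold (edgeR, adjusted p = 0.0541), and passed with no filter on low counts (0.0297), with all 30 libraries sharing the spread (0.0423) and without DMSO 12 h replicate 2 (0.0447) or C59 12 h replicate 1 (0.0182). Without C59 12 h replicate 3 the difference shrank to -0.12 and did not pass. Groups did not overlap for 57.1% of all genes at 12 h. *Meis1* spread widely in C59, at 89.1, 72.5 and 58.5 CPM against 81.8, 79.4 and 75.2 CPM in DMSO. *Meis2* did likewise, at 233, 211 and 164 CPM against 180, 195 and 156 CPM. Neither passed (*Meis1* -0.11 ± 0.12, edgeR, adjusted p = 0.484, *Meis2* 0.19 ± 0.11, adjusted p = 0.184).

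C59 12 h replicate 3 was the lowest of its group for *Meis1*, *Meis2*, *Pbx3* and *Shox2*. Without it *Meis2* passed as higher (0.34, edgeR, adjusted p = 0.00811), and without C59 12 h replicate 1, the highest of the group, *Meis1* passed as lower (-0.25, edgeR, adjusted p = 0.0337). The same replicate 3 had the highest sum of 4 erythroid genes, 6650 CPM against 4700 and 4850 CPM in the other C59 libraries and 3670 to 5380 CPM in DMSO, and the lowest sum of 5 cartilage genes in its group, 1650 CPM against 2350 and 1910 CPM. In DMSO the cartilage sum was 867 to 928 CPM. The sum of 6 somite and body wall genes in C59 was 223 CPM in replicate 3 against 329 and 307 CPM. In DMSO it was 257 to 286 CPM. Surface ectoderm and ridge genes, also 6, summed to 242 CPM in replicate 3 against 185 and 188 CPM. Their DMSO sum was 172 to 186 CPM. Over the 5 mesenchyme genes of the limb the sum was 1080 to 1140 CPM in C59 and 1660 to 1740 CPM in DMSO. The list was not uniform, with 4 genes called lower and 1 higher, beside 25.5% and 22% of all genes. Further sums without overlap at 12 h were endothelium (328 to 362 CPM in C59 and 261 to 285 in DMSO) and macrophages (28.5 to 30.9 and 16.7 to 18.6). Schwann cell precursors and crest (12.5 to 24 and 7.24 to 11.5) and muscle progenitors (58.9 to 80.1 and 84.7 to 91.1) were also apart. Within the muscle list 2 genes were called higher and 3 lower. The part of these cell types in the members' values was not tested.

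At 18 h *Meis2* was called. Its values were 162, 175 and 155 CPM in DMSO and 229, 219 and 191 CPM in C59, and every C59 library lay above every DMSO library. The log2 fold change of 0.40 ± 0.10 was 1.32 times the control level (edgeR, adjusted p = 0.0466), while 3.46% of all genes were called higher. In C59 its means were 220, 209, 203 and 213 CPM at 1, 6, 12 and 18 h, and 158 CPM at 24 h. The 12 h libraries ranged from 164 to 233 CPM, and within C59 only 24 h against 1 h was tested. *Meis1* was also higher in C59 without overlap, at 83.5, 75.0 and 67.6 CPM against 63.3, 65.3 and 61.8 CPM, but did not pass (0.27 ± 0.10, edgeR, adjusted p = 0.151). Groups did not overlap for 34.2% of all genes.

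The 18 h values depended on single libraries. Without C59 18 h replicate 3, the library that stood apart, both *Meis2* and *Meis1* (0.33, edgeR, adjusted p = 0.0155) were called higher, so that 2 of 6 passed. Without any other single library of 18 h the *Meis2* call was lost, at adjusted p from 0.106 to 0.212, with estimates from 0.34 to 0.44 that stayed positive. That replicate was also the lowest of its group for *Shox2*, at 220 CPM beside 316 and 306 CPM, and for *Pbx3*, at 48.6 CPM beside 59.4 and 59.3 CPM. *Shox2* in DMSO was 322, 323 and 321 CPM (-0.18 ± 0.13, edgeR, adjusted p = 0.444), and without C59 18 h replicate 3 its difference was -0.03 (adjusted p = 0.693). The erythroid sum was 5460 CPM in C59 18 h replicate 3 and 3550 and 3540 CPM in the other C59 libraries, beside 3030 to 3650 CPM in DMSO. The somite and body wall sum was 293 CPM in that replicate and 345 and 354 CPM in the other C59 libraries. In DMSO it was 340 to 345 CPM. The part of these cells was not tested. *Meis3* was at 7.84, 7.36 and 7.08 CPM in DMSO and 7.58, 8.14 and 10.9 CPM in C59 (0.28 ± 0.17, edgeR, adjusted p = 0.343), highest in the same replicate. Other marker sums also differed at 18 h without overlap, with cartilage at 1470 to 1790 CPM in C59 and 966 to 1100 in DMSO, surface ectoderm at 176 to 183 and 136 to 152, macrophages at 33.9 to 38.6 and 24.1 to 28, neural genes at 14.5 to 18 and 18.6 to 22.7, and muscle progenitors at 55.1 to 70.6 and 109 to 115. Among the 6 ectoderm genes 3 were called higher and 1 lower at 18 h, beside 3.46% and 3.62% of all genes. The part of these cell types in the *Meis2* result was not tested.

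*Pbx2* at 18 h lay below control in all C59 libraries, at 268, 276 and 276 CPM against 312, 294 and 303 CPM in DMSO. The difference of -0.13 ± 0.08 did not pass (edgeR, adjusted p = 0.351), and passed only with all 30 libraries sharing the spread (adjusted p = 0.00498). Thus in CPM *Pbx2* in C59 lay below DMSO at 1 h, above it at 6 and 12 h, and below it at 18 h. Each time the libraries did not overlap, which held for 22%, 36.8%, 57.1% and 34.2% of all genes. Of these differences only that at 12 h passed in the main test, and at 6 h it was 0.06 (edgeR, adjusted p = 0.339). In FPKM the groups overlapped at 6 h, at 86.3 to 94.6 in DMSO and 92.6 to 96.9 in C59. They also overlapped at 18 h (80.2 to 93.9 and 74.5 to 87.7). At 24 h the *Pbx2* groups overlapped.

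At 24 h *Pbx3* was called. It measured 48.6, 49.9 and 53.5 CPM in DMSO and 59, 65 and 64.5 CPM in C59, without overlap, and its log2 fold change was 0.32 ± 0.07, or 1.24 times control (edgeR, adjusted p = 0.0207). Of all genes, 2.88% were called higher. From 1 h to 18 h its effect had been between -0.06 and 0.03 on the log2 scale with adjusted p of 0.522 or above. The call was lost without DMSO 24 h replicate 1 (adjusted p = 0.109) or 2 (0.0845) or C59 24 h replicate 2 (0.0593). Marker sums without overlap at 24 h were cartilage (1370 to 1540 CPM in C59 and 1150 to 1300 in DMSO), surface ectoderm (148 to 152 and 132 to 138), macrophages (36.5 to 40.1 and 28.9 to 32.5), endothelium (239 to 260 and 282 to 286), muscle progenitors (92.6 to 101 and 117 to 136) and neural genes (13.1 to 16.5 and 20.9 to 23.8). Only 2 neural genes were tested at 24 h, of which 1 was called lower, beside 3.56% of all genes. The part of these cell types in the *Pbx3* result was not tested. *Meis2* was again higher in C59 without overlap, at 154, 162 and 159 CPM against 147, 147 and 144 CPM (0.12 ± 0.05, edgeR, adjusted p = 0.191), where 27.7% of all genes had no overlap. *Meis3* leaned the same way with overlap (0.24 ± 0.13, edgeR, adjusted p = 0.322). *Meis1* was at -0.04 (interval -0.18 to 0.09), *Pbx2* at 0.04 (-0.06 to 0.15) and *Shox2* at 0.04 (-0.12 to 0.19).

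**Figure D3:**
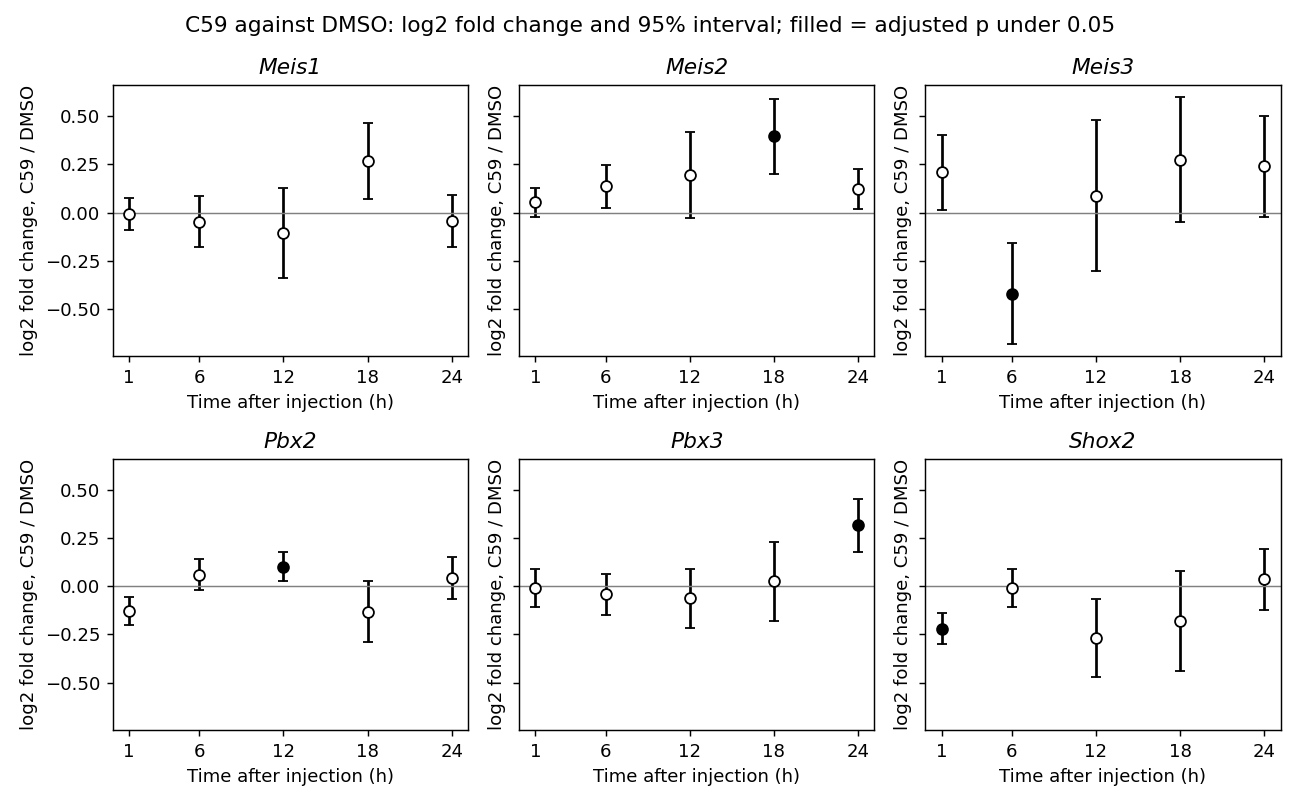
Log2 fold change of C59 against DMSO (y axis) at each time after injection (x axis, hours) for the 6 genes, with the 95% interval. Filled points passed an adjusted p of 0.05. One gene is filled at each time, in order of time *Shox2*, *Meis3*, *Pbx2*, *Meis2* and *Pbx3*.

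Whether the effect of C59 itself changed from one time point to the next was tested with interaction contrasts over 12 libraries, and 0 of 6 members were called from 6 to 12 h, from 12 to 18 h and from 18 to 24 h (edgeR). The backgrounds were 18.1%, 8.49% and 6.96%. At an unadjusted p below 0.05 the counts were 0, 2 (*Meis1* and *Pbx2*) and 3 (*Meis1*, *Meis2* and *Pbx3*). DESeq2 called 0, 1 and 0. From 12 to 18 h the effect on *Pbx2* moved by -0.23 ± 0.08 (edgeR, adjusted p = 0.101, and 0.0124 by DESeq2). From 18 to 24 h it moved by -0.32 ± 0.11 for *Meis1* (edgeR, adjusted p = 0.113) and by -0.28 ± 0.10 for *Meis2* (edgeR, adjusted p = 0.117), and both passed without C59 18 h replicate 3 (0.0166 and 0.0122). From 6 to 12 h *Meis3* passed without DMSO 12 h replicate 2 (0.78, adjusted p = 0.0191), and from 12 to 18 h *Meis1* passed without C59 12 h replicate 1 (0.54, adjusted p = 0.0443). For these 3 steps the effects were therefore not shown to differ between neighbouring times, and the step from 1 to 6 h was not tested.

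The balance between *Meis2* and *Meis1* was followed as a ratio. *Meis2* counts divided by *Meis1* counts in the same library need no scaling between libraries. At 1 h the ratio was 2.13 to 2.17 in DMSO and 2.21 to 2.27 in C59, at 6 h 2.06 to 2.24 and 2.33 to 2.55, at 12 h 2.08 to 2.46 and 2.62 to 2.90, at 18 h 2.51 to 2.68 and 2.74 to 2.92, and at 24 h 2.13 to 2.37 and 2.46 to 2.68. At all 5 times every C59 library was above every DMSO library. The largest gap was at 12 h, with means of 2.24 ± 0.194 in DMSO and 2.78 ± 0.145 in C59 (SD, n = 3). This ratio was chosen after the values had been seen and has no test. Of the 14038 genes other than *Meis1* set against *Meis1* in the same way, 5 genes (0.0356%) were higher in C59 without overlap at all 5 times, namely *Meis2*, *Gsc*, *Hcn4*, *Ntrk2* and *Zfp853*, and 7 (0.0499%) were lower. In C59 12 h replicate 3, where both genes were low, the ratio was 2.80. As a ratio of FPKM values the groups were without overlap at 4 of 5 times, since at 18 h DMSO (2.21 to 2.34) met C59 (2.33 to 2.47).

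**Figure D4:**
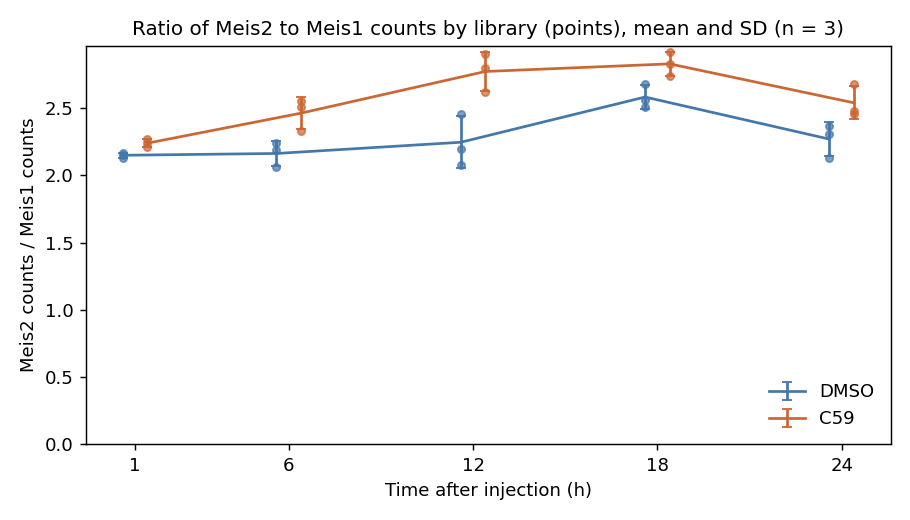
Ratio of *Meis2* to *Meis1* counts (y axis from 0) in each library against hours after injection, DMSO in blue and C59 in orange, with mean and SD (n = 3). The C59 points lie above the DMSO points at all 5 times, with the widest gap at 12 h.

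Further genes of the TALE class were followed as a list of 13, of which 12 were tested at 1 h. In C59, 0 were called higher and 2 lower at 1 h (*Tgif1* and *Mkx*), 0 and 3 at 6 h, 5 and 4 at 12 h, and 2 and 0 at both later times. Of all genes, 1.14% were called higher and 1.61% lower at 1 h, 8.2% and 11.4% at 6 h, 22% and 25.5% at 12 h, 3.46% and 3.62% at 18 h, and 2.88% and 3.56% at the end. The median log2 fold change of the list was -0.06, -0.13, 0.14, 0.30 and 0.05 at these times, and that of all genes was between 0 and 0.02. *Irx3* and *Irx5*, which act in the proximal and anterior limb, were lower at 6 h (*Irx3* -0.86 ± 0.07, edgeR, adjusted p = 1.98e-06, *Irx5* -0.56 ± 0.09, adjusted p = 0.000675) and at 12 h (-0.56 and -0.36), and *Irx4* was higher at 12, 18 and 24 h (0.67, 0.99 and 0.68).

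Genes of the proximal side and of retinoic acid metabolism formed a list of 11. Of these, none was called at 1 h. In the order higher and lower, the counts were 0 and 3 at 6 h, 6 and 1 at 12 h, 0 and 1 at 18 h and 3 and 0 at the end. At 12 h the called genes included *Aldh1a2*, which makes retinoic acid (1.71 ± 0.22, edgeR, adjusted p = 0.000102), and *Dhrs3*, which reduces retinal (0.54 ± 0.11, adjusted p = 0.00216). *Dhrs3* had been called lower at 6 h (-0.41 ± 0.11, edgeR, adjusted p = 0.0141), and *Pax1*, a marker of the proximal girdle region, was lower at 6 and 12 h (-0.38 and -0.79). *Pax1* was also the gene called lower at 18 h, at 48 ± 0.853 CPM in C59 and 74 ± 1.53 CPM in DMSO. The list of 9 genes of the distal side had none called at 1 h, 1 higher and 5 lower at 6 h, 0 and 7 at 12 h, and 0 and 5 at both later times. *Msx1*, a target of BMP and WNT signals in distal mesenchyme, was at -3.00 ± 0.11 at 12 h (edgeR, adjusted p = 1.2e-07), and *Cyp26b1*, which breaks down retinoic acid in the distal bud, at -0.59 ± 0.05 (edgeR, adjusted p = 5.86e-06). At 12 h the median log2 fold change was -0.59 for the distal list and 0.21 for the proximal list, and for the 6 members 1 was called higher and 0 lower. At that time 22% of all genes were called higher and 25.5% lower.

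**Figure D5:**
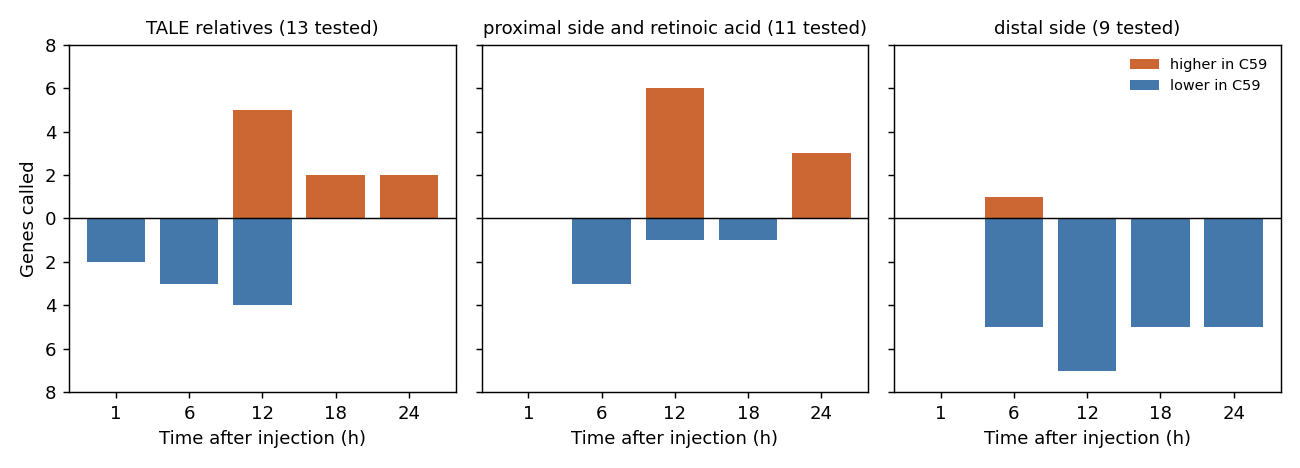
Number of genes called in C59 against DMSO (y axis, higher above and lower below the line at 0) at each time in hours, for TALE relatives, genes of the proximal side and retinoic acid, and genes of the distal side. At 12 h the distal list has 7 genes lower and none higher, and the proximal list 6 higher and 1 lower, where 22% of all genes were higher and 25.5% lower.

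Over the 10 group means the members followed related courses in part. On the log2 scale Pearson's r was 0.81 between *Meis1* and *Meis2*, 0.79 between *Meis1* and *Pbx3*, and 0.16 between *Meis3* and *Pbx2*, and *Shox2* had negative values with all 5, from -0.65 with *Meis3* to -0.01 with *Pbx2*. These are descriptions over 10 points that share development time. Among 9494 genes with a mean of at least 10 CPM, the ones most like *Meis1* were *Rbpms* (0.99) and *Nfs1* (0.98), most like *Meis2* were *Spsb4* (0.97) and *Peg10* (0.96), and most like *Shox2* was *Vcam1* (0.97). For *Pbx2* the nearest was *Ift74* (0.97), for *Pbx3* *Gpx4* (0.95), and for *Meis3* *Esrra* (0.97, over 9495 genes).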

How the data were processed

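PolyA RNA-sequencing covered 30 libraries of mouse forelimb buds, grouped by the sample labels into 10 groups of 3. Reads were trimmed (Cutadapt 1.16) and aligned to mm10 (STAR 2.7.0e) by the authors. The deposited count table holds raw counts per gene for autosomes. The deposited FPKM table was made by the authors with Cufflinks 2.2.1, run as unstranded. Replicates were not pooled. Columns were joined to samples by name, and genes to GENCODE M21 (50628 matched).

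Counts of 20569 protein-coding autosomal genes entered the quasi-likelihood test of edgeR 4.0.16 (R 4.3.3) with TMM factors, after filterByExpr had removed low genes (count threshold 10, total 15). Each time point was fitted on its 6 libraries and interaction contrasts and 24 h against 1 h on the libraries they name. The threshold for a call was 0.05 for p adjusted by Benjamini-Hochberg over all genes tested. The study's own rule, which adds a log2 fold change beyond 1, is given beside it. Tests were two-sided. SE was derived from the F statistic, and 95% intervals from the SE. CPM used TMM factors over all 30 libraries. FPKM served for levels between genes and for limma 3.58.1 on log2(FPKM + 1) and log2(FPKM + 0.1).

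Alternatives were DESeq2 1.42.0 and its size factors, upper-quartile factors, other filters, all genes, a shared spread, a replicate block and leaving out each library. Scripts were tested on simulated data. Totals of 18188636 to 38974885 counts set the precision, and intervals cover the spread between libraries only. Members and lists were chosen with earlier results of these data known. Named genes were the members, *Axin2*, genes of these lists with a call, and for each member up to 3 genes of most similar course over group means, with the genes of the ratio to *Meis1* added after their values were seen. One gene of the lists is not reported here by name. Motifs were searched in RefSeq promoter windows.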

Additional observations from a re-analysis of the deposited data

Results flagged for a closer look

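One result was noted because the effect of C59 differed between time points by the test of the difference itself. For *Pbx3* the log2 fold change of C59 against DMSO was -0.01 at 1 h and 0.32 at 24 h, a difference of 0.332 ± 0.082 (SE; edgeR quasi-likelihood test, adjusted p = 0.0282). The difference was 0.304 to 0.374 with any library left out, and the call was lost in 8 of these 12 cases, with all 30 libraries sharing the spread (adjusted p = 0.106) and with the replicate number as a block (0.0523). At 24 h the values were 59, 65 and 64.5 CPM in C59, all above the 48.6, 49.9 and 53.5 CPM in DMSO, whereas at 1 h the groups overlapped. Y-linked RNA, as a summed FPKM over 1, was present in all C59 libraries at both times, and in 2 of the 3 DMSO libraries at each, and the part of sex was not tested.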

How the results depend on the processing

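The calls for C59 against DMSO were small and most were near the threshold. Requiring a log2 fold change beyond 1 left 0 members called at each of the 5 times, in both courses from 1 to 24 h, and in the effect at 24 h against 1 h. With all 30 libraries sharing the spread the counts were 0 at both 1 and 6 h, 2 at both 12 and 18 h, 1 for the change from 12 to 18 h, 2 from 18 to 24 h and 0 for the 24 h against 1 h effect. DESeq2 gave 0 at 6 h, 0 at 12 h, 1 from 12 to 18 h and 2 for the 24 h against 1 h effect. Upper-quartile factors and both FPKM scales gave 0 at 6 h, and 0 were called at 12 h with all genes tested. Leaving out 1 library gave 0 to 2 members at 1 h, 12 h and 18 h, 0 to 1 at 6 h and 24 h, 0 to 1 from 6 to 12 h and from 12 to 18 h, 0 to 2 from 18 to 24 h, 5 to 6 for the DMSO course, 3 to 5 for the C59 course and 0 to 2 for the 24 h against 1 h effect. The cause was not tested. The falls of *Meis1*, *Meis2* and *Meis3* over the day in both treatments, and of *Pbx2* and *Pbx3* in DMSO, held their side of the threshold under every alternative run except the minimum fold.

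Direction turned in 45 cases, all of them differences not called in the main test except *Pbx2* in the C59 course. With upper-quartile factors these were *Shox2* at 6 h (0.014), *Pbx3* at 12 h (0.02), and from 6 to 12 h *Meis1* (0.004) and *Pbx3* (0.042). On log2(FPKM + 1) and log2(FPKM + 0.1) they were *Shox2* at 6 h (0.02 on both), *Pbx3* at 12 h (0.005 on both) and from 6 to 12 h (0.061 and 0.063), *Pbx2* in the C59 course (0.017 and 0.018) and *Meis1* in the 24 h against 1 h effect (0.041 and 0.042). Leaving out 1 library gave ranges for *Meis1* of -0.131 to 0.029 at 6 h, -0.253 to 0.043 at 12 h, -0.067 to 0.012 at 24 h, -0.205 to 0.091 from 6 to 12 h and -0.054 to 0.025 for the 24 h against 1 h effect. For *Meis2* the range was -0.04 to 0.201 from 6 to 12 h. For *Meis3* it was -0.094 to 0.343 at 12 h, -0.065 to 0.371 from 12 to 18 h, -0.149 to 0.133 from 18 to 24 h and -0.027 to 0.125 for the 24 h against 1 h effect. For *Pbx3* it was -0.027 to 0.019 at 1 h, -0.104 to 0.03 at 12 h, -0.023 to 0.114 at 18 h and -0.059 to 0.074 from 6 to 12 h. For *Shox2* it was -0.059 to 0.029 at 6 h, -0.063 to 0.107 at 24 h and -0.043 to 0.235 from 12 to 18 h. Among all called genes the share that was higher moved with upper-quartile factors from 41.9% to 52% at 6 h and from 46.4% to 61.4% at 12 h.

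The replicate numbers did not pair the samples. The correlation of deviations of same-numbered DMSO and C59 libraries was -0.213 to 0.136 and over 0.1 in 1 of 15 pairs, and 4 of 15 correlated best with their own number. With the replicate number as a block, 0 members were called at 6 h, 3 at 12 h (*Pbx2*, *Meis2* at 0.19 with adjusted p = 0.0275, and *Shox2* at -0.28 with adjusted p = 0.0433), 0 at 18 h (*Meis2* at adjusted p = 0.0981) and 0 for the 24 h against 1 h effect.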
